A study of Mus musculus with 2 samples.

Results

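Early myeloid progenitor nuclei were a small population among tdTomato+ cells sorted from femur marrow on postnatal day 21. The mice carried Prrx1-cre and the R26R(tdTomato/+) reporter. They were chosen by the RNA of 5 genes in a joint RNA and ATAC library, Mpo, Elane, Atp8b4, Rab44 and Gpr141. A barcode was called a nucleus at 500 or more non-mitochondrial UMIs (unique molecular identifiers, each counting 1 captured RNA molecule) and 1000 or more ATAC counts in peaks, with no limit on mitochondrial UMIs. A called barcode was a member when the 5 genes made up at least 0.15% of its non-mitochondrial UMIs, with 3 or more UMIs from 2 or more of them. In addition, 8 secondary granule genes (Ltf, Ngp, Camp, Lcn2, Mmp8, Chil3, Retnlg and Cd177) had to stay under 0.3%. This rule found 65 members among 4481 called barcodes, a share of 1.45% (exact Clopper-Pearson 95% interval 1.12 to 1.85%).

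The series profiled stromal cells of young marrow, and this experiment read RNA and open chromatin in the same nuclei, of which about 15000 were loaded. Prrx1-cre is a Cre driver of limb mesenchyme, so tdTomato from the R26R reporter labels its descendants. All nuclei described here came from the same sorted preparation of the same genotype and age, with no control genotype or treatment. There was 1 RNA library and 1 ATAC library, so nuclei are not replicates, no test between conditions was possible and every difference below describes these libraries. Within them the early myeloid nuclei were set against 107 granulocyte nuclei (the 8 secondary granule genes at 0.3% or more), 287 macrophage nuclei (Csf1r, Adgre1, Mrc1, C1qa, C1qb, C1qc, Cd163 and Mertk at 0.15% or more), 124 B-lymphoid nuclei (B-lineage genes, among them Pax5, Cd79a, Cd79b, Vpreb1, Vpreb3, Igll1, Rag1, Rag2 and Blnk, at 0.15% or more) and all 4416 other called barcodes, which include those classes.

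Neutrophils and monocytes arise in marrow from shared myeloid progenitors. At the promyelocyte stage these cells fill their primary (azurophil) granules with myeloperoxidase and serine proteases. At the next stage primary granule genes are switched off while those of secondary granules, such as lactoferrin, are switched on under C/EBP-epsilon. PU.1 (Spi1) and the C/EBP factors drive the myeloid program, Myb and Runx1 act in progenitors, and Irf8 favours monocytes over granulocytes. Among the genes of the rule, Mpo encodes myeloperoxidase and Elane neutrophil elastase. Atp8b4 encodes a phospholipid-flipping ATPase of the P4 class, Rab44 a large Rab GTPase and Gpr141 an orphan receptor.

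The ATAC counts played no part in choosing the members beyond the minimum of 1000. The peaks of highest ratio in early myeloid nuclei were the start sites of Ctsg (cathepsin G, a primary granule protease) and Mpo. The first 4 sequences are shown because their start sites carry the comparison between primary and secondary granule genes. They are RefSeq promoters of the build GRCm38.p6, from 250 bases before to 50 after the start, each wholly inside a peak of the matrix. The promoter of Mpo lies at chr11:87793534-87793833 on the plus strand and that of Ctsg at chr14:56102525-56102824 on the minus strand. The promoter of Ms4a3, a membrane protein of granulocyte and monocyte progenitors, lies at chr19:11640802-11641101 on the minus strand. That of the secondary granule gene Ngp lies at chr9:110419558-110419857 on the plus strand. The other 4 are the central 200 bases of peaks that were among the most open in early myeloid nuclei relative to other barcodes, given on the plus strand. They lie 155539 bases from the start of Kit (chr5:75730802-75731001) and 27263 bases from that of Gata2 (chr6:88166103-88166302). The last pair lie 2551 bases from the start of Ctsg (chr14:56105522-56105721) and 17798 bases from that of Parp8 (chr13:117043681-117043880). Capitals mark motif letters found on either strand. For PU.1 they are GAGGAAGT and for C/EBP factors TTGCNNAA. The RUNX factors were searched as TGTGGTT, and the MYB factors as CAACNGC. The letters searched for factors of the GATA family were AGATAAG.
Mpo promoter: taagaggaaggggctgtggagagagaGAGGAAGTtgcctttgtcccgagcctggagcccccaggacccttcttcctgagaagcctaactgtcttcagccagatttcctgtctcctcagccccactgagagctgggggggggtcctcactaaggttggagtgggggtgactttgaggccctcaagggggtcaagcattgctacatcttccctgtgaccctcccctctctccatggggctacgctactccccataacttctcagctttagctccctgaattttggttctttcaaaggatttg
Ctsg promoter: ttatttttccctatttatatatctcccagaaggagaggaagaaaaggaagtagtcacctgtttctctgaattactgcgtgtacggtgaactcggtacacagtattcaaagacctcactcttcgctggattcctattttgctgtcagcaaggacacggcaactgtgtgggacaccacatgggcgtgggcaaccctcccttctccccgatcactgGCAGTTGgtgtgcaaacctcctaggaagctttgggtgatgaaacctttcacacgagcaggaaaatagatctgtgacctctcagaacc
Ms4a3 promoter: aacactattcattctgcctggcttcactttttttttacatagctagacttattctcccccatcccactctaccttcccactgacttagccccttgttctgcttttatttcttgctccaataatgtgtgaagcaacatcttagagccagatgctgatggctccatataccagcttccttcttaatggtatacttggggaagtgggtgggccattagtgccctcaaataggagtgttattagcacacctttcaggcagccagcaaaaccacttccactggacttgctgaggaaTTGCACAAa
Ngp promoter: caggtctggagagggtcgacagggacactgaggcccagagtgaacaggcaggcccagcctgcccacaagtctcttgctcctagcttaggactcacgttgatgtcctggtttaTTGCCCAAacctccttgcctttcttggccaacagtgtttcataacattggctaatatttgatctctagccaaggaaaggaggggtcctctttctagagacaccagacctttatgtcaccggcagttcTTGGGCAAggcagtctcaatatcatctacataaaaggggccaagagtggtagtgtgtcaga
Peak centre near Kit: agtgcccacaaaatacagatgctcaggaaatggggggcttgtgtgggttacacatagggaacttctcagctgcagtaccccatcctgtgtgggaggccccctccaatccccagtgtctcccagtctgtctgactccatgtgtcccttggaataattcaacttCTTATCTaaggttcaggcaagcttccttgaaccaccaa
Peak centre near Gata2: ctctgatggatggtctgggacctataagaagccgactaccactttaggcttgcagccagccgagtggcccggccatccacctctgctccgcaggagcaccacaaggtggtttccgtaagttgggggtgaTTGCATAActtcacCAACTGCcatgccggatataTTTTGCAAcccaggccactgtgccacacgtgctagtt
Peak centre near Ctsg: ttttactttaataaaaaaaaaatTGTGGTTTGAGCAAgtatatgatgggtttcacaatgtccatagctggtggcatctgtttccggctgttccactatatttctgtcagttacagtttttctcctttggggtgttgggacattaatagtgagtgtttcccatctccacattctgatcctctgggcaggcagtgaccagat
Peak centre near Parp8: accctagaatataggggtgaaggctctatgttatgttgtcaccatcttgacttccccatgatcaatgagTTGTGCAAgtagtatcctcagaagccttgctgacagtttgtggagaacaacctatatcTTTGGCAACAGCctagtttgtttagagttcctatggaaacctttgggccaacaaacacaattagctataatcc
The Mpo promoter held the PU.1 letters, which 3.20% of 32851 RefSeq promoters of the same length held on either strand. Ctsg held the MYB letters (12.5% of promoters), Ms4a3 the C/EBP letters within the 50 bases after its start and Ngp the C/EBP letters at 2 places (10.8% of promoters). The peak near Gata2 held C/EBP letters at 2 places around a MYB match, and the peak near Ctsg a RUNX match that overlapped a C/EBP match. The peak near Kit held the GATA letters, and the peak near Parp8 both C/EBP and MYB letters. These matches describe the letters only. The peak centres beyond the 10 peaks of highest ratio, those near Gata2 and Ctsg, were picked after their values were seen, as were the promoters of Ctsg, Ms4a3 and Ngp. No peak of the matrix lay over the RefSeq start of Elane, so its promoter is not shown.

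The members held 188735 non-mitochondrial UMIs and 4409192 ATAC counts, out of 13598508 and 171471736 in all called barcodes. A member had a median of 2099 UMIs (739 to 13188) and 49019 ATAC counts (2024 to 719153), against medians of 1137 UMIs and 19167 counts in granulocyte nuclei, 1909 and 35627 in macrophage nuclei, 1399 and 30568.5 in B-lymphoid nuclei and 1691 and 33825 in all other called barcodes. Members were thus deeper than granulocyte nuclei in both assays, and shares of nuclei with a UMI are therefore also given at an equal depth. Their mitochondrial UMIs stood apart, with a median of 39.6% (6.36 to 64.5%), against 9.55% in granulocyte, 26.5% in macrophage and 12.4% in B-lymphoid nuclei and 16.2% in all others. Of the members, 49 (75.4%) had over 30% mitochondrial UMIs, against 16 granulocyte nuclei (15%) and 111 macrophage nuclei (38.7%), and 2 members had 10% or less, against 55 granulocyte nuclei. RNA quality so moved with membership, and its part in the results was not tested.

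A single member held 16.3% of the members' ATAC counts and 6.99% of their UMIs, with the 5 genes at 0.152% of its UMIs, just past the threshold. Without it 35859 peaks were at least 2-fold higher in early myeloid nuclei than in all other called barcodes, against 34253 with it, and 31611 of these were the same peaks. RNA free in the droplets was profiled from 62603 barcodes of 100 to 400 UMIs, which had a median of 226 non-mitochondrial UMIs. If each nucleus held that many, free RNA would be 7.78% of the members' UMIs, against 11.6% in granulocyte nuclei and 7.44% in all others. The chosen range of 100 to 400 UMIs bounds this median, and how much free RNA a nucleus held was not tested. By Scrublet score, 2 of the 65 members were among the 161 barcodes taken as doublets, and 1 member also met the rule for B-lymphoid nuclei.

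**Figure D1:**
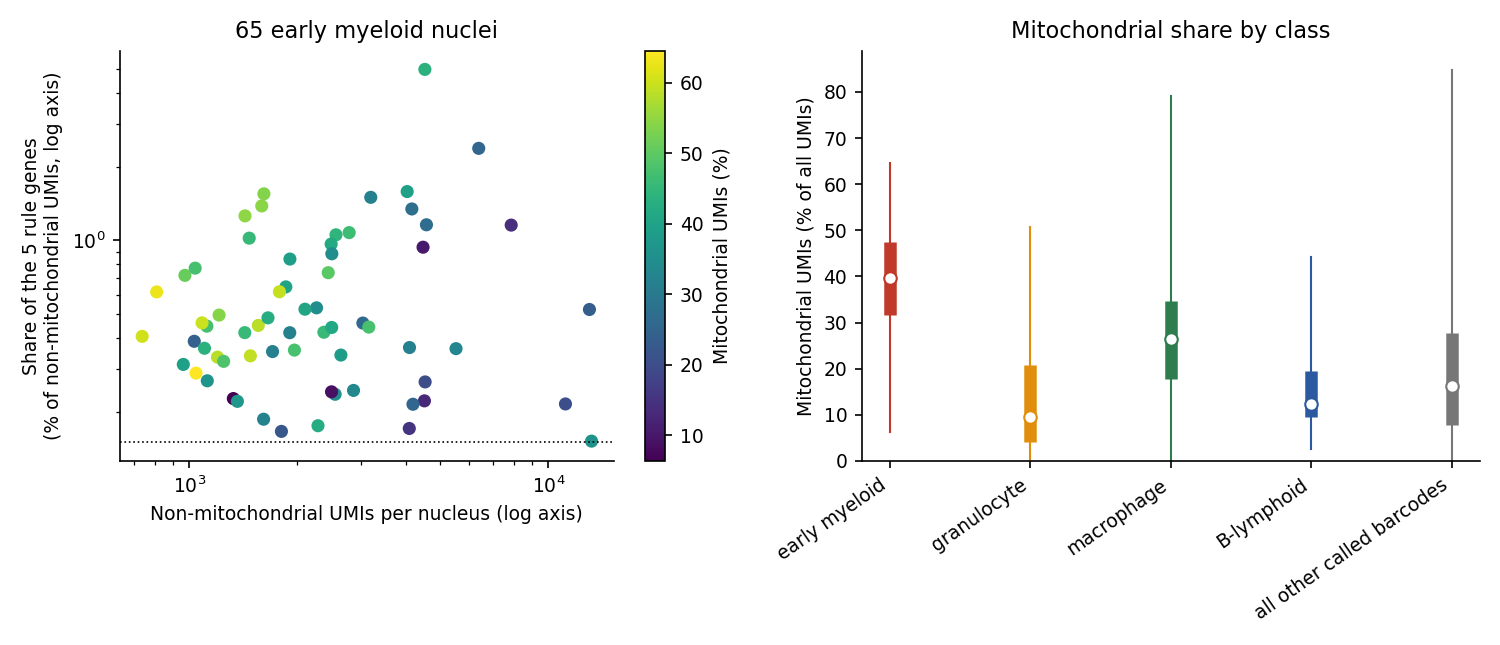
Left, each point is 1 early myeloid nucleus, with its non-mitochondrial UMIs on the horizontal and the share of the 5 marker genes in percent on the vertical axis (both log axes), coloured by the percent of mitochondrial UMIs; the dotted line is the 0.15% threshold. Right, the percent of mitochondrial UMIs by class, with the median as a point, the quartiles as a thick bar and the range as a thin line; the early myeloid nuclei had the highest median of the 5 classes, 39.6%.

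The 5 genes that chose the nuclei are given as a description. The lowest share of a member was 0.152%, the median 0.443% and the highest 4.99%, while the highest share among barcodes with enough marker UMIs but under the threshold was 0.141%, and 25 such barcodes were left out. Another 17 barcodes met the marker rule and exceeded the granule limit, the lowest of them at 0.392%, while the highest granule share of a member was 0.294%. Of these 17, 16 are among the 107 granulocyte nuclei, and all 17 are among the other called barcodes. Members rested on a median of 10 marker UMIs, and 8 had exactly 3. UMIs came from 2 of the 5 genes in 15 members, from 3 in 30, from 4 in 11 and from all 5 in 9.

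Levels are CPM, the counts of a gene per 1000000 non-mitochondrial UMIs of the summed nuclei of a class, with exact Poisson 95% intervals. All intervals cover counting error only. Mpo reached 4408 CPM (4114 to 4718) in early myeloid nuclei, against 239 CPM in granulocyte, 44.1 in macrophage and 32.7 in B-lymphoid nuclei and 35.1 in all other called barcodes. A member held 0 to 132 UMIs of Mpo, with a median of 4 and at least 1 in 57 of 65. Elane reached 1192 CPM (1041 to 1359), with up to 82 UMIs in a nucleus and a UMI in 35, against 244 CPM in granulocyte nuclei and 14.8 in all others. The free RNA held 106 CPM of Mpo and 38.8 CPM of Elane, above the level in all other called barcodes, where 8.27% of barcodes had a Mpo UMI at a median depth of 1691 UMIs. The members varied widely in both enzymes, and 8 of them held neither. Rab44 was at 721 CPM (605 to 852) in early myeloid nuclei and 225 CPM in granulocyte nuclei. Atp8b4 was at 694 CPM (580 to 824) in early myeloid nuclei and 253 CPM in granulocyte nuclei, and Gpr141 at 318 CPM (243 to 409) in early myeloid nuclei and 167 CPM in granulocyte nuclei. These 3 genes were seen in 49, 41 and 27 members, and the gap between early myeloid and granulocyte nuclei was smaller for them than for Mpo, at log2 ratios of 1.67, 1.45 and 0.92 against 4.19. The granulocyte level of Mpo and Elane rested on the 16 nuclei that also met the marker rule: they held 38 of 50 Mpo UMIs and 44 of 51 Elane UMIs, and the other 91 granulocyte nuclei stood at 69.4 CPM of Mpo and 40.5 CPM of Elane. Without these 16 the granulocyte level of Atp8b4 was 156 CPM, that of Gpr141 110 CPM and that of Rab44 173 CPM.

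Over all genes with 20 or more UMIs on both sides together, 2833 of 13578 (20.9%) were at least 2-fold higher in early myeloid nuclei than in all other called barcodes and 2413 (17.8%) at least 2-fold lower. At so few UMIs the 0.5 counts added to each side weigh on the ratio, and among the 4808 genes with 5 or more UMIs expected on each side, with the addition scaled to depth, 398 (8.28%) were higher and 1219 (25.4%) lower. Against granulocyte nuclei 394 of 2790 genes were higher (14.1%) and 325 lower (11.6%). Against macrophage nuclei 615 of 6135 higher (10%) and 1456 lower (23.7%), and against B-lymphoid nuclei 285 of 4111 higher (6.93%) and 1254 lower (30.5%). The median log2 ratio of all genes tested was 0.20, 0.16, -0.11 and -0.54 against all other called barcodes, granulocyte, macrophage and B-lymphoid nuclei in that order. The counts of each gene list below are read beside these shares.

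Primary granule genes were higher in early myeloid nuclei, both those of the rule and the others. Of 14 tested, 13 were at least 2-fold higher in early myeloid nuclei than in all other called barcodes and 0 lower, with a median log2 ratio of 4.96. The summed list stood at 8817 CPM in early myeloid nuclei, against 2188 CPM in granulocyte nuclei and 329 CPM in all others. Mpo and Elane, which belong to the list and chose the members, made up 1057 of the 1664 UMIs. Without them 11 of 12 genes were higher than in all others and 0 lower, with a median of 4.12, and the sum was 3216 CPM in early myeloid nuclei, against 1705 CPM in granulocyte and 1530 in macrophage nuclei and 279 in all others. Against granulocyte nuclei 7 of 10 of these genes were higher and 2 lower. The 16 granulocyte nuclei past the marker rule stood at 4318 CPM and the other 91 at 1156 CPM. Outside the rule, Ctsg reached 546 CPM (445 to 662) in early myeloid nuclei, against 14.3 CPM in granulocyte, 4.01 in macrophage and 0 in B-lymphoid nuclei and 3.58 in all others. The granulocyte level of Ctsg rests on 3 UMIs, 2 of them in those 16 nuclei. Its 103 UMIs in members lay in 18 members, with 53 in a single nucleus and a median of 0. Among genes chosen after their values were seen, Prtn3 (proteinase 3, a further protease of these granules) was at 1091 CPM (948 to 1251) and in 41 members, against 248 CPM in granulocyte nuclei and 24.2 CPM in all others. Of the 52 Prtn3 UMIs in granulocyte nuclei 41 lay in the 16 past the marker rule, and the other 91 were at 63.6 CPM. Ms4a3, chosen in the same way, was at 217 CPM (156 to 295) in 16 members, against 90.8 CPM in granulocyte nuclei (57.8 CPM without those 16) and 6.34 CPM in all others. Nkg7, a granule membrane protein better known from cytotoxic lymphocytes, was at 106 CPM in 8 members, against 28.7 CPM in granulocyte nuclei (5.78 CPM without those 16) and 1.57 CPM in all others. Srgn, the proteoglycan serglycin that packs granule proteases, was at 461 CPM in early myeloid nuclei, against 177 CPM in granulocyte nuclei, and Lyz2, lysozyme, lay the other way at 238 CPM in early myeloid nuclei, against 817 CPM in granulocyte nuclei. The 16 members with a marker share under 0.3% held 44 of the 45 Lyz2 UMIs, and among the other 49 members the log2 ratio of Lyz2 to all other called barcodes was -2.72, beside 1.71 over all members. Srgn and Lyz2 were picked after their values were seen.

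Thinned to 500 UMIs in every nucleus, Ctsg, Prtn3 or Ms4a3 was seen in 35.4% of early myeloid nuclei, against 9.35% of granulocyte, 1.05% of macrophage and 2.42% of B-lymphoid nuclei and 2.15% of all others. At full depth the share of early myeloid nuclei was 66.2%. Prtn3, in 41 members, was the widespread gene of the set, while Ctsg was in 18 and Ms4a3 in 16.

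**Figure D2:**
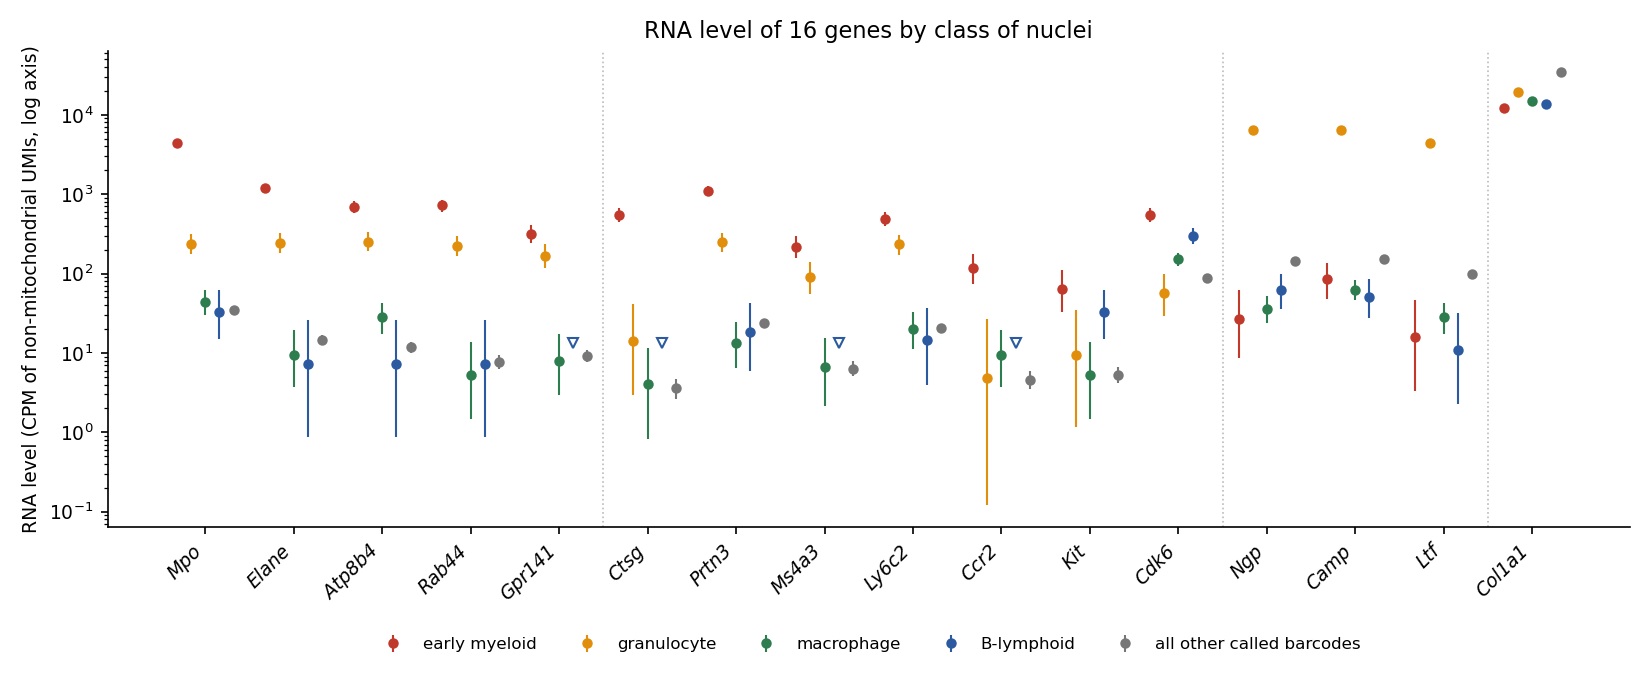
RNA level of 16 genes in CPM (log axis) in early myeloid, granulocyte, macrophage and B-lymphoid nuclei and all other called barcodes, drawn left to right for each gene. Points are summed levels, bars exact Poisson 95% intervals, open triangles the upper bound of a class with 0 UMIs, and dotted lines part the 5 genes of the rule, other genes of progenitors and monocytes, secondary granule genes and Col1a1; Mpo stood at 4408 CPM in early myeloid nuclei and Ngp at 26.5 CPM, against 239 and 6511 CPM in granulocyte nuclei.

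The secondary granule genes used by the rule were low by construction. Ngp (neutrophilic granule protein) had 26.5 CPM in early myeloid nuclei and 6511 CPM in granulocyte nuclei, and Ltf (lactoferrin) 15.9 CPM in early myeloid nuclei and 4376 CPM in granulocyte nuclei. Camp (cathelicidin) had 84.8 CPM in early myeloid nuclei and 6373 CPM in granulocyte nuclei. No UMI of Mmp8, neutrophil collagenase, was found in any of the 65 members, against 82 UMIs in granulocyte nuclei, a level at least 24.6-fold lower when 3 UMIs stand for the limit of detection over the members. In 41 members there was no UMI of any of these 8 genes.

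Secondary granule genes that the rule did not use followed the same order. Of 10 tested against granulocyte nuclei all 10 were at least 2-fold lower in early myeloid nuclei, with a median log2 ratio of -2.33, and a median of -1.53 without the 16 granulocyte nuclei past the marker rule. Against all other called barcodes 6 of 12 were higher and 0 lower, but of the 3 with 5 expected UMIs on each side none was higher and the median was 0.16. Fcnb (ficolin-B) was at 111 CPM in early myeloid nuclei, against 425 CPM in granulocyte nuclei (237 CPM without those 16) and 10.1 CPM in all others. Abca13, a lipid transporter, was at 79.5 CPM in early myeloid nuclei, against 220 CPM in granulocyte nuclei and 4.40 CPM in all others. Ltb4r1, the leukotriene B4 receptor, was at 58.3 CPM in early myeloid nuclei, against 143 CPM in granulocyte nuclei and 3.80 CPM in all others. The genes of later neutrophils lay further below than these, with 10 of 11 lower than in granulocyte nuclei, a median log2 ratio of -3.91 and sums of 1023 CPM in early myeloid nuclei against 18716 CPM in granulocyte nuclei. S100a8, a calcium-binding alarmin, was at 440 CPM in early myeloid nuclei with a UMI in 25 of them, against 6664 CPM in granulocyte nuclei and 191 CPM in all others; the free RNA profile held 269 CPM of it.

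Transcription factors of the lineage were captured at few UMIs. Myb stood at 185 CPM (129 to 258) in 20 early myeloid nuclei, against 43.0 CPM in granulocyte, 4.01 in macrophage and 571 in B-lymphoid nuclei and 25 in all others. Spi1, which encodes PU.1, was at 106 CPM, against 86.0 CPM in granulocyte, 108 in macrophage and 21.8 in B-lymphoid nuclei and 15.7 in all others, so the 3 myeloid classes lay close together. Cebpe, the factor of the secondary granule stage, was at 21.2 CPM (5.77 to 54.3) from 4 UMIs in 3 early myeloid nuclei, below the 134 CPM of granulocyte nuclei. Irf8 was at 68.9 CPM in early myeloid nuclei, against 4.78 CPM in granulocyte, 170 in macrophage and 149 in B-lymphoid nuclei. Between early myeloid and granulocyte nuclei the order of Irf8 was thus the opposite of that of Cebpe. Cebpa was at 26.5 CPM from 5 UMIs, against 4.78 CPM in granulocyte nuclei, and Gfi1 at 15.9 CPM from 3 UMIs. Of 18 factors tested against all other called barcodes 7 were higher and 1 lower, with a median log2 ratio of 0.88. Among the 10 with 5 expected UMIs on each side 3 were higher and 2 lower, with a median of 0.50. Runx1 was at 519 CPM in early myeloid nuclei, 449 CPM in granulocyte nuclei and 410 CPM in all others.

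Of the 20 genes of stem and multipotent progenitors, Kit, Cd34 and Flt3 were found in a minority. Any gene of the list was found in 47 members (72.3%), against 61.0% of all other called barcodes. Kit, the receptor of stem cell factor, was at 63.6 CPM (32.9 to 111) in 9 early myeloid nuclei, against 9.55 CPM in granulocyte, 5.34 in macrophage and 32.7 in B-lymphoid nuclei and 5.29 in all others. Cd34, a surface sialomucin of progenitors, was at 58.3 CPM (29.1 to 104) in 4 members, against 4.78 CPM in granulocyte nuclei and 5.15 in all others. Flt3, the receptor of FLT3 ligand, was at 47.7 CPM (21.8 to 90.5) in 4 members, and had no UMI in granulocyte or macrophage nuclei. All 3 intervals lay above the level in all other called barcodes. They cover counting error only, and a single member held 13 of the 32 UMIs of these 3 genes. Any of the 3 was seen in 12 of 65 members (18.5%), and after thinning to 500 UMIs in 6.15%, against 1.87% of granulocyte, 0% of macrophage and 1.61% of B-lymphoid nuclei and 0.793% of all others. Each of these 12 also had a UMI of Atp8b4, Rab44 or Gpr141, 10 had Mpo or Elane and 8 had Ctsg, Prtn3 or Ms4a3.

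Cdk6, a kinase of the early cell cycle that is high in blood progenitors, was seen more widely, at 551 CPM (450 to 668) in 33 members, against 57.3 CPM in granulocyte, 151 in macrophage and 298 in B-lymphoid nuclei and 87.6 in all others. In the whole list of 18 tested, 8 genes were higher and 1 lower than in all other called barcodes, but of the 8 genes deep enough for 5 expected UMIs on each side only 1 was higher and the median was -0.45. Gata2, a factor of early progenitors and mast cells that was chosen after its value was seen, had 4 UMIs, or 21.2 CPM, against 0 UMIs in granulocyte nuclei and 2.61 CPM in all others.

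Some monocyte genes were present in early myeloid nuclei, but the monocyte and dendritic list as a whole did not stand out. Of 17 tested, 4 were at least 2-fold higher than in all other called barcodes and 3 lower, beside 20.9 and 17.8% of all genes, with a median of 0.08. Among the 11 with 5 expected UMIs on each side 1 was higher and 3 lower, and the sum was 1929 CPM in early myeloid nuclei and 2295 CPM in all others. Ly6c2, a surface protein of inflammatory monocytes and their progenitors, was at 487 CPM in 26 early myeloid nuclei, against 234 CPM in granulocyte (156 without the 16 past the marker rule), 20 in macrophage and 14.5 in B-lymphoid nuclei and 20.9 in all others. Ccr2, the chemokine receptor by which monocytes leave marrow, was at 117 CPM in 11 members, against 4.78 CPM in granulocyte and 9.35 in macrophage nuclei and 4.55 in all others. F13a1, coagulation factor XIII A, was at 238 CPM in 19 members, against no UMI in granulocyte nuclei, 38.7 CPM in macrophage nuclei and 121 in all others. Ly6c2, Ccr2, F13a1 or Irf8 was found in 39 members and Ctsg, Prtn3 or Ms4a3 in 43; 29 had both sets, 14 only Ctsg, Prtn3 or Ms4a3 and 10 only the monocyte set. Nuclei with both were deep, at a median of 3161 UMIs against 2099 for all members, and after thinning the monocyte set was seen in 27.7% of early myeloid nuclei, against 8.41% of granulocyte, 11.8% of macrophage and 8.06% of B-lymphoid nuclei and 5.71% of all others. Of the 39 members with the monocyte set, 33 also had Mpo or Elane and 6 had neither. The set had 172 UMIs in members, of which 24 lay in a single nucleus and 16 in another, both without Mpo or Elane. Genes of mature macrophages, part of which had chosen the macrophage nuclei, were far below the level there. C1qa, a complement subunit, was at 47.7 CPM in early myeloid nuclei, against 3467 CPM in macrophage nuclei, 240 in all others and 215 in the free RNA, and all 16 macrophage genes were lower than in macrophage nuclei, with a median log2 ratio of -4.71.

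Receptors and adhesion molecules that could receive signals of the stroma were next. Of 21 cytokine and growth factor receptors 11 were at least 2-fold higher than in all other called barcodes and 0 lower, with a median of 1.24, although among the 6 with 5 expected UMIs on each side 2 were higher and the median was -0.02. Csf3r, the G-CSF receptor, was at 63.6 CPM in early myeloid nuclei, against 81.2 CPM in granulocyte and 32.1 in macrophage nuclei and 7.01 in all others, while Csf1r, the M-CSF receptor, was at 21.2 CPM in early myeloid nuclei, against 417 CPM in macrophage nuclei, of whose rule it is part. Cxcr4, the receptor of the stromal chemokine CXCL12, was at 106 CPM in 14 members, against 95.5 CPM in granulocyte, 152 in macrophage and 200 in B-lymphoid nuclei and 32.5 in all others. Of 15 adhesion and homing receptors 9 were higher and 1 lower, with a median of 1.21. Among the 7 with 5 expected UMIs on each side 3 were higher and 1 lower, with a median of 0.90. Itgal, the alpha chain of LFA-1, stood at 106 CPM, against 86.0 CPM in granulocyte nuclei and 7.46 in all others. Csf3r, Cxcr4 and Itgal were thus close to their levels in granulocyte nuclei, while Csf1r was far below macrophage nuclei. Of 13 stromal niche ligands 0 were higher and 6 lower.

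Genes used by blood cells in general were mostly higher. Of 16 such genes 14 were higher than in all other called barcodes and 0 lower, with a median of 2.03, and Ptprc, which encodes CD45, was at 249 CPM, against 263 CPM in granulocyte, 317 in macrophage and 320 in B-lymphoid nuclei and 51.8 in all others. Of 7 genes of the NADPH oxidase, which makes superoxide in phagocytes, 6 were higher than in all others and 0 lower. The cytosolic subunit gene Ncf4 was at 90.1 CPM, against 100 CPM in granulocyte nuclei and 5.82 in all others, whereas Ncf1 was at 132 CPM against 396 CPM in granulocyte nuclei. Lta4h, which makes leukotriene B4, was at 376 CPM in 37 members, next to 401 CPM in granulocyte nuclei and 37.4 in all others.

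Outside the lists, the 15 genes of highest ratio to all other called barcodes included several at higher levels than in granulocyte nuclei. Gria3, a glutamate receptor subunit, was at 286 CPM (215 to 373) in 23 early myeloid nuclei, against 9.55 CPM in granulocyte, 8.01 in macrophage and 14.5 in B-lymphoid nuclei and 13.9 in all others. Plac8 was at 249 CPM, against 66.9 CPM in granulocyte nuclei and 13.2 in all others, and Tiam1, an activator of the GTPase Rac, at 281 CPM, against 158 CPM in granulocyte nuclei and 16.6 in all others. The unnamed transcript F630028O10Rik was at 180 CPM in 19 members, against 86.0 CPM in granulocyte nuclei and 2.39 in all others. Among the genes of highest ratio to granulocyte nuclei were Gstm1, a glutathione transferase, at 127 CPM in early myeloid nuclei against 9.55 CPM in granulocyte nuclei, and Rnf220, a ubiquitin ligase, at 196 CPM in early myeloid nuclei against 14.3 CPM in granulocyte nuclei.

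The summed levels of cell cycle genes lay above all other called barcodes and below the B-lymphoid nuclei. The shares of nuclei with an S-phase UMI, given below, did not lie below those of B-lymphoid nuclei. Of 25 S-phase genes 17 were at least 2-fold higher than in all other called barcodes and 0 lower, with a median of 1.45. Among the 7 with 5 expected UMIs on each side 3 were higher and 0 lower, with a median of 0.91. The S-phase sum was 1288 CPM in early myeloid nuclei, against 1022 CPM in granulocyte, 588 in macrophage and 2683 in B-lymphoid nuclei and 538 in all others. The helicase subunit Mcm5 was at 79.5 CPM against 20.7 CPM in all others, and Hells, a chromatin remodeller, at 84.8 CPM against 22.9 CPM in all others. Of 25 genes of G2 and M phase 14 were higher and 0 lower, and of the 9 with 5 expected UMIs on each side 4 were higher and 0 lower. The G2 and M sum was 1775 CPM, against 2121 CPM in granulocyte, 807 in macrophage and 5646 in B-lymphoid nuclei and 912 in all others. The proliferation marker Mki67 was at 170 CPM (116 to 239), an interval that holds the 150 CPM of all others. Topoisomerase Top2a was at 270 CPM against 134 CPM in all others. Mcm5, Hells and Top2a were thus further above all others than Mki67 was. At 500 UMIs a nucleus, 47.7% of early myeloid nuclei (35.1 to 60.5%) had an S-phase UMI, against 24.3% of granulocyte, 19.9% of macrophage and 38.7% of B-lymphoid nuclei and 17.1% of all others. At full depth the shares were 80% of early myeloid, 44.9% of granulocyte, 48.1% of macrophage and 55.6% of B-lymphoid nuclei and 43.8% of all others. A G2 or M gene was seen after thinning in 46.2% of early myeloid, 31.8% of granulocyte, 20.9% of macrophage and 51.6% of B-lymphoid nuclei and 21.3% of all others. Of 16 genes of ribosome assembly 8 were higher and 1 lower, but of the 7 with 5 expected UMIs on each side 1 was higher. Of 16 genes of secretory folding 4 were higher and 0 lower, a share near that of all genes. Calr, the chaperone calreticulin, was at 498 CPM, against 148 CPM in granulocyte nuclei and 181 in all others.

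Genes of bone and cartilage cells mostly lay below their level in all other called barcodes. Col1a1, the bone collagen gene, was found in all 65 members at 12160 CPM, against 19218 CPM in granulocyte, 15121 in macrophage and 13494 in B-lymphoid nuclei, 34097 in all others and 45222 CPM in the free RNA. All 10 chondrocyte genes and 10 of 11 osteoblast genes were at least 2-fold lower than in all other called barcodes, and 12 of 15 erythroid genes were. The summed osteoblast list came to 21061 CPM in early myeloid nuclei, against 65346 CPM in all others and 72657 CPM in the free RNA. The free RNA levels are those of its own profile, while free RNA was taken as about 7.78% of the members' UMIs, a share that rests on the chosen range. They are thus not the level that free RNA alone would give in members. Vpreb1 and Vpreb3, which make the surrogate light chain of early B cells, had 0 UMIs in members, as did the erythroid gene Ank1 and the factor Gata1. Of 16 basophil, mast cell and eosinophil genes 9 had no UMI in members, and Mcpt8, a basophil protease picked after its value was seen, had 3 UMIs. The tdTomato transgene, on which the cells had been sorted, had 12 UMIs in 6 members, or 63.6 CPM (32.9 to 111), against 119 CPM in granulocyte, 88.1 in macrophage and 61.8 in B-lymphoid nuclei, 245 in all others and 55.4 CPM in the free RNA. The interval of the transgene in early myeloid nuclei holds the level of the free RNA profile, which is likewise not the level that free RNA alone would give. The source of these 12 UMIs was not tested, nor whether these nuclei came from cells that expressed the reporter.

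**Figure D3:**
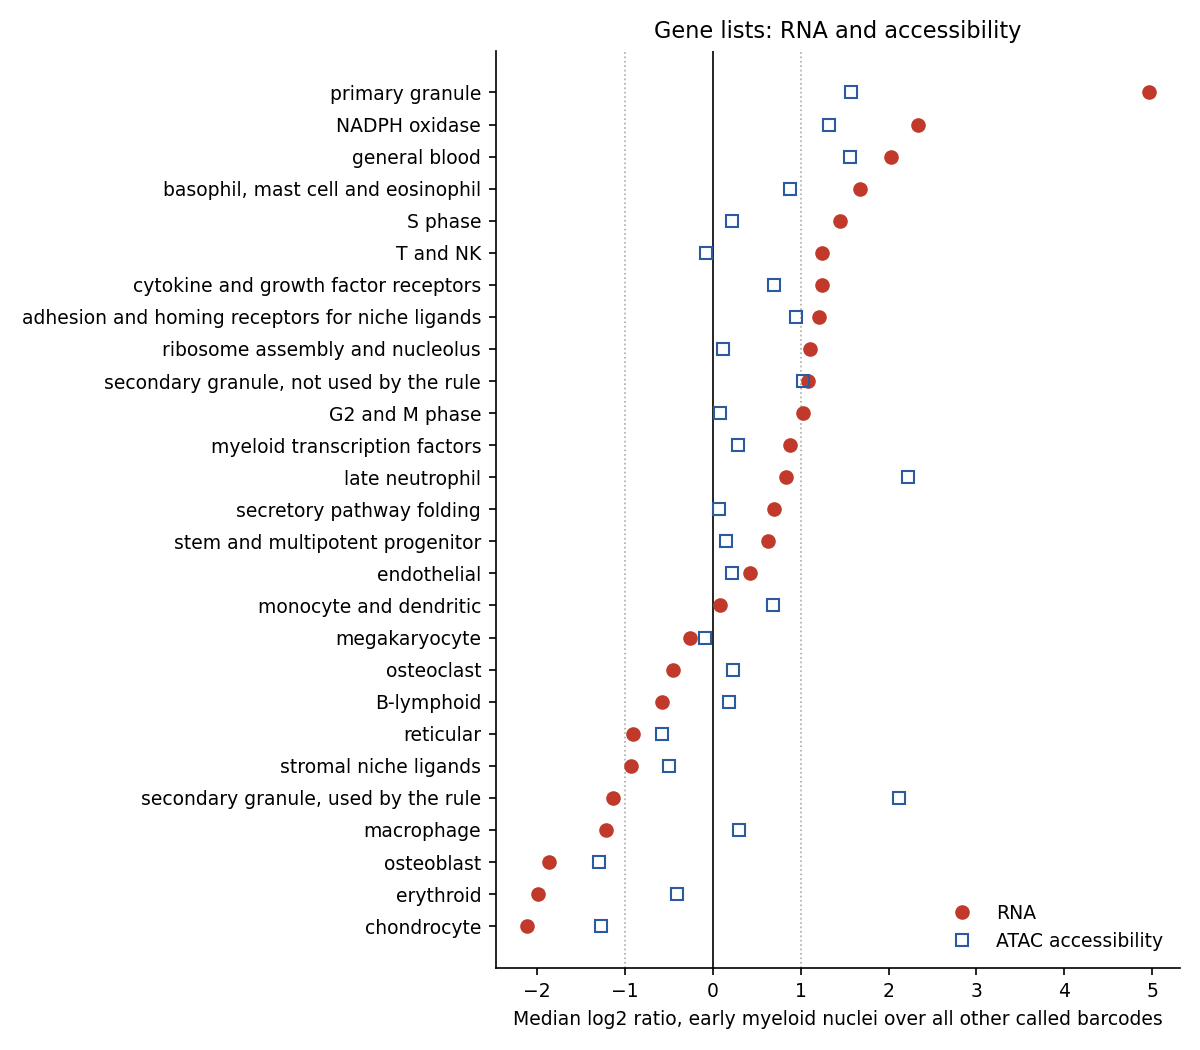
Median log2 ratio of early myeloid nuclei to all other called barcodes for each gene list, in RNA (filled circles) and in ATAC accessibility of the gene body with the 3 kb before it (open squares); dotted lines mark 2-fold. RNA and ATAC had the same sign for primary granule genes (4.96 and 1.57), which include Mpo and Elane of the rule. They had opposite signs for the secondary granule genes used by the rule (-1.13 and 2.12), whose RNA the rule held low. Secondary granule genes not used by the rule had the same sign in both (1.08 and 1.02).

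Chromatin gave a reading that the rule did not use. Accessibility of a gene is the sum of ATAC counts in peaks that overlap its body or the 3 kb before it, scaled to CPM of all peak counts of a class. A single granulocyte nucleus held 573625 of the 3799369 ATAC counts of its class. ATAC levels of granulocyte nuclei were not computed without it, nor without the nuclei past the marker rule. Of 24484 genes 2180 (8.9%) were at least 2-fold more open in early myeloid nuclei than in all other called barcodes and 3440 (14%) less. Among primary granule genes 9 of 14 were more open and 0 less, with a median log2 ratio of 1.57 beside 0.01 for all genes. Ctsg was at 61.0 CPM (53.9 to 68.8) in early myeloid nuclei, against 17.1 CPM in granulocyte and 0.713 in macrophage nuclei and 1.54 in all others. Mpo was at 62.1 CPM (55.0 to 70.0), against 27.9 CPM in granulocyte and 5.17 in macrophage nuclei and 4.84 in all others. Ms4a3 was at 20.6 CPM (16.6 to 25.3) in early myeloid nuclei and 20 CPM (15.8 to 25) in granulocyte nuclei, with overlapping intervals, and at 0.934 CPM in all others. The gap to granulocyte nuclei was thus largest for Ctsg among these 3 genes. Of the other genes of the rule, Elane was at 29.5 CPM in early myeloid nuclei and 10.9 CPM in all others, and Rab44 at 82.6 CPM in early myeloid nuclei and 29.8 CPM in all others. Atp8b4 was at 229 CPM in early myeloid nuclei and 84.9 CPM in all others, and Gpr141 at 28.6 CPM in early myeloid nuclei and 13 CPM in all others.

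At the start sites themselves the peak of Ctsg, which holds the promoter printed above, had a count in 32 of 65 early myeloid nuclei (49.2%), against 10 of 107 granulocyte nuclei (9.35%), 1 macrophage nucleus, 0 B-lymphoid nuclei and 27 of 4416 others (0.611%). The peak of Mpo had a count in 27 early myeloid nuclei (41.5%), against 6 granulocyte nuclei (5.61%), 4 macrophage nuclei, 0 B-lymphoid nuclei and 34 others (0.770%). Both start sites were thus counted in many members and seldom elsewhere, at median ATAC counts of 49019 in members, 19167 in granulocyte and 35627 in macrophage nuclei. Shares of nuclei with an ATAC count were not thinned to an equal depth, here or below. Rab44 and Ms4a3 differed from these: the start of Rab44 was at 23.8 CPM in early myeloid and 28.7 CPM in granulocyte nuclei, and that of Ms4a3 at 17.2 CPM in early myeloid and 19.0 CPM in granulocyte nuclei.

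The secondary granule genes were also more open than in all other called barcodes, although their RNA had been held low by the rule. Of the 8, 7 were at least 2-fold more open and 0 less, with a median log2 ratio of 2.12, beside 1 of 8 higher and 4 lower in RNA. Ngp was at 15.9 CPM (12.4 to 20.1) in early myeloid nuclei, against 66.3 CPM (58.4 to 75) in granulocyte, 1.60 in macrophage and 0.893 in B-lymphoid nuclei and 2.38 in all others, and its start-site peak had a count in 16 early myeloid nuclei (24.6%), against 61 granulocyte nuclei (57.0%) and 110 others (2.49%). Chil3, a chitinase-like protein, was at 24.5 CPM (20.1 to 29.6), against 45.3 CPM in granulocyte nuclei and 1.56 in all others, with RNA at 42.4 CPM in early myeloid nuclei, 1758 CPM in granulocyte nuclei and 36.6 CPM in all others. Ltf was at 15.9 CPM (12.4 to 20.1), against 80 CPM (71.3 to 89.5) in granulocyte nuclei and 4.57 in all others. Mmp8, without a UMI in any member, was at 25.2 CPM, against 34.7 CPM in granulocyte nuclei and 4.59 in all others, and its start-site peak was at 13.6 CPM (10.4 to 17.5) in early myeloid nuclei and 12.9 CPM (9.54 to 17.1) in granulocyte nuclei, with overlapping intervals. Retnlg was at 2.95 CPM in early myeloid and 32.6 CPM in granulocyte nuclei, and Cd177 at 7.94 CPM in early myeloid and 65.3 CPM in granulocyte nuclei. Camp was the gene that did not pass 2-fold, at 28.3 CPM in early myeloid nuclei, against 52.4 CPM in granulocyte nuclei and 16 in all others. Each of the 8 genes was thus more open in early myeloid nuclei than in all other called barcodes and less open than in granulocyte nuclei, and their summed RNA was at 223 CPM in early myeloid nuclei, against 22079 CPM in granulocyte nuclei and 505 CPM in all others. The limit of detection, 3 ATAC counts, corresponds to 0.680 CPM in members, below each of these levels.

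Late neutrophil genes were also more open than in all other called barcodes, with 10 of 14 past 2-fold, 0 less and a median of 2.22. Without the deepest member the medians were 1.68 for primary granule genes, 2.19 for the 8 secondary granule genes and 2.28 for late neutrophil genes. S100a8 was at 22.5 CPM (18.2 to 27.3), against 56.3 CPM in granulocyte nuclei and 2.87 in all others, and Trem1, an activating receptor of neutrophils and monocytes, at 39.5 CPM in early myeloid nuclei, against 46.1 CPM in granulocyte nuclei and 3.75 in all others. Of the secondary granule genes not used by the rule 6 of 12 were more open and 0 less, and Fcnb was open to overlapping extents, at 23.1 CPM (18.9 to 28.1) in early myeloid nuclei and 24.0 CPM (19.3 to 29.4) in granulocyte nuclei, although its RNA was at 111 CPM in early myeloid and 425 CPM in granulocyte nuclei. Cebpe was at 53.8 CPM (47.1 to 61.0), against 38.4 CPM (32.4 to 45.2) in granulocyte, 24.1 in macrophage and 13.6 in B-lymphoid nuclei and 11.6 in all others, the reverse of its order in RNA between early myeloid and granulocyte nuclei.

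**Figure D4:**
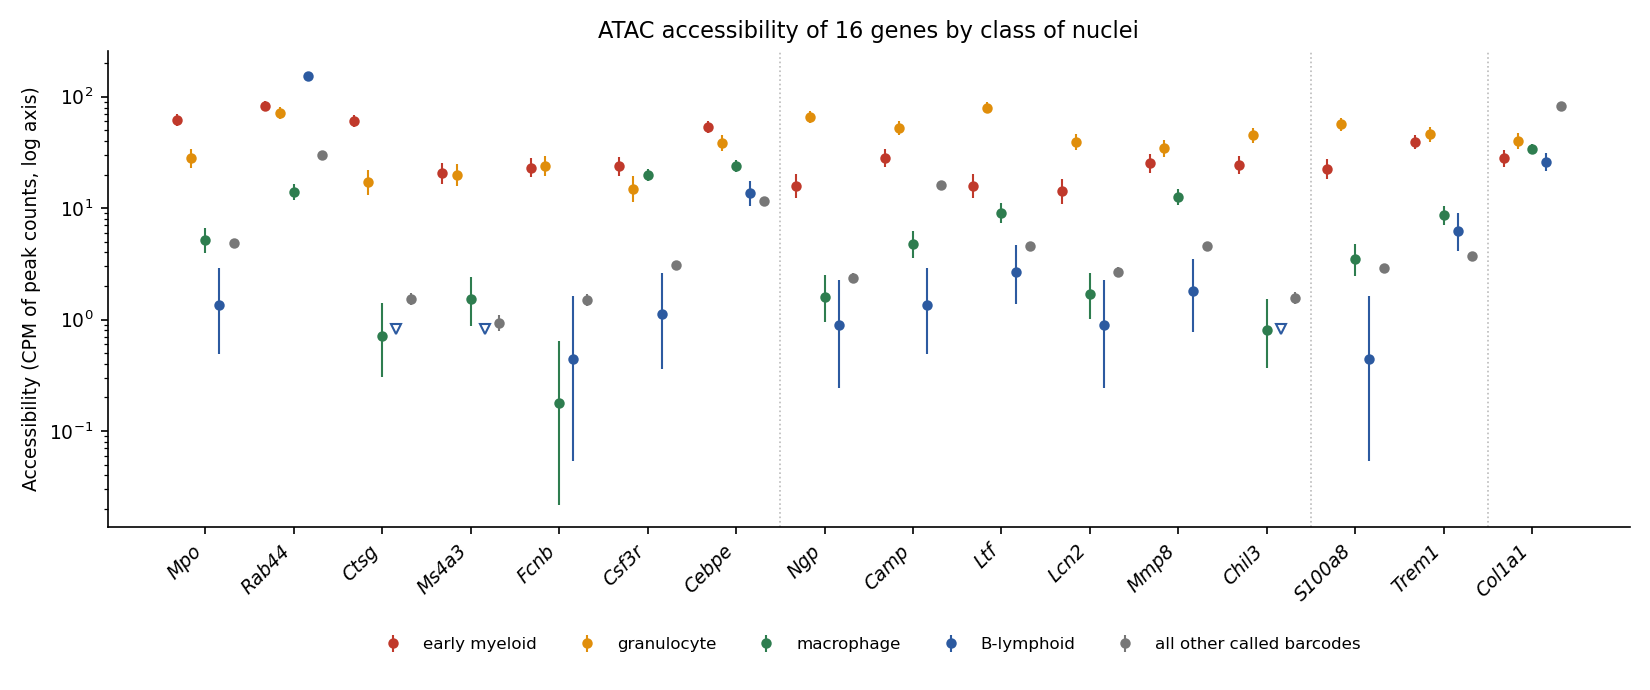
Accessibility of 16 genes in CPM of peak counts (log axis) in early myeloid, granulocyte, macrophage and B-lymphoid nuclei and all other called barcodes, drawn left to right for each gene; points are summed levels, bars exact Poisson 95% intervals and open triangles the upper bound of a class with 0 counts. Ctsg and Mpo were most open in early myeloid nuclei (61.0 and 62.1 CPM), and Ngp in granulocyte nuclei (66.3 CPM, beside 15.9 CPM in early myeloid nuclei).

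Of 20 stem and multipotent progenitor genes 4 were more open in early myeloid nuclei than in all other called barcodes and 1 less, with a median log2 ratio of 0.15. Flt3 was at 98.0 CPM (89.0 to 108), against 24.7 CPM in granulocyte, 37.3 in macrophage and 165 in B-lymphoid nuclei and 21.4 in all others. Its start-site peak had a count in 28 members (43.1%), against 10 granulocyte nuclei (9.35%), at median ATAC counts of 49019 and 19167. Cd34 was at 11.1 CPM, against 4.21 CPM in granulocyte nuclei and 3.40 in all others. In RNA each of these genes had been seen in 4 members. Kit was at 60.3 CPM, against 42.9 CPM in granulocyte, 13.9 in macrophage and 39.7 in B-lymphoid nuclei and 23.5 in all others. Csf3r was at 23.8 CPM against 15 CPM in granulocyte nuclei and 3.06 in all others, Ccr2 at 12.2 CPM against 4.47 CPM in granulocyte nuclei and 1.35 in all others, and Csf1r at 54.4 CPM against 27.6 CPM in granulocyte nuclei and 22.1 in all others. Irf8 was at 48.5 CPM in early myeloid nuclei, against 26.8 CPM in granulocyte, 123 in macrophage and 190 in B-lymphoid nuclei and 58.3 in all others, so it was less open than in all others. The locus of Mcpt8 was at 6.12 CPM from 27 counts, against 0.526 CPM in granulocyte nuclei and 0.455 in all others. Of 18 monocyte and dendritic genes 7 were more open and 0 less, of 22 receptors 10 were more open and 1 less, and of 16 general blood genes 14 were more open and 0 less. Of the S-phase genes and of the G2 and M genes 0 of 25 passed 2-fold in chromatin, and 7 of 11 osteoblast and 7 of 10 chondrocyte genes were less open.

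Between RNA and chromatin, of 398 genes higher in RNA with 5 expected UMIs on each side, 396 could be measured in ATAC and 51 (12.9%) were at least 2-fold more open, 0 less. Of the genes lower in RNA 301 (24.8%) were less open and 7 (0.577%) more. Over all 4796 such genes 98 (2.04%) were more open and 367 (7.65%) less.

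Over single peaks 34253 of 202515 with 50 or more counts (16.9%) were at least 2-fold higher in early myeloid nuclei than in all other called barcodes and 65844 (32.5%) lower, at a median log2 ratio of -0.31. Among the 133481 peaks with 5 or more counts expected on each side 18135 (13.6%) were higher and 46664 (35%) lower. The higher peaks took 18.2% of the members' counts and 4.98% of those of all other called barcodes. Of them 5.01% lay within 1 kb of a coding gene's start and 25.9% beyond 50 kb, against 3.08% and 48.7% of the lower peaks and 10.3% and 35.3% of all.

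The 10 peaks of highest ratio began with the starts of Ctsg (chr14:56102071-56102841, log2 ratio 6.07) and Mpo (chr11:87793212-87794206, 5.68). The other 8 lay 4703 to 220634 bases from the nearest coding start, 4 of them in introns, 1 in an exon and 3 between genes. The peak whose nearest coding start was that of Kit (chr5:75730455-75731348, in an intron of the transcript Gm43101) was at 29.9 CPM (25 to 35.5) in early myeloid nuclei, against 9.48 CPM in granulocyte, 0.178 in macrophage and 1.79 in B-lymphoid nuclei and 0.790 in all others, with a count in 32 members (49.2%) and 46 others. The peak near Parp8 (chr13:117043335-117044227) was at 13.2 CPM in 18 members, against 4.74 CPM in granulocyte nuclei and 0.341 in all others. In both the level was highest in early myeloid nuclei and next in granulocyte nuclei.

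Further peaks were named from the 10 highest with 5 expected counts, a minimum added after the values were seen. The peak 2551 bases from the Ctsg start (chr14:56105125-56106118) was at 36.1 CPM in 34 members, against 10.0 CPM in granulocyte nuclei and 1.17 in all others. The peak 27263 bases from the Gata2 start (chr6:88165778-88166628) was at 22.5 CPM in 28 members, against 10.5 CPM in granulocyte, 0.802 in macrophage and 0 in B-lymphoid nuclei and 0.700 in all others. A peak 2844 bases from the Mpo start (chr11:87789815-87790737) was at 27.4 CPM in 30 members, against 16.1 CPM in granulocyte nuclei and 1.0 in all others. The Mpo start site was at 24.0 CPM in early myeloid and 3.42 CPM in granulocyte nuclei. In these summed counts the distal peak was thus shared with granulocyte nuclei to a greater extent than the start site. How far single deep granulocyte nuclei carried these levels was not tested.

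Motif letters in the central 300 bases differed between peak sets. The C/EBP letters TTGCNNAA were in 39.8% of the 1000 peaks of highest ratio and 21.0% of all higher peaks, against 14.7% of lower peaks and 14.7% of all. The PU.1 letters GAGGAAGT were in 10.8% of the 1000 highest and 12.2% of all higher peaks, against 2.0% of lower peaks and 3.99% of all. MYB letters (CAACNGC) were in 16.4% of the 1000 highest, against 12% of all, and GATA letters (AGATAAG) in 5.5%, against 2.50%. TEAD letters (GGAATG) were in 13.2% of the 1000 highest and 22.1% of lower peaks, and AP-1 letters (TGANTCA) in 13.2% of the 1000 highest and 21.9% of lower peaks. The RUNX letters (TGTGGTT) differed little, at 15.5% of the 1000 highest and 13.6% of all, and CTCF letters (CCACNAGG) were in 4.6% of the 1000 highest and 7.91% of all. Base composition was close, with a median GC content of 47.7% in the 1000 highest, 47.3% in lower peaks and 49.0% in all. Both strands were searched, and a match says nothing of binding.

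**Figure D5:**
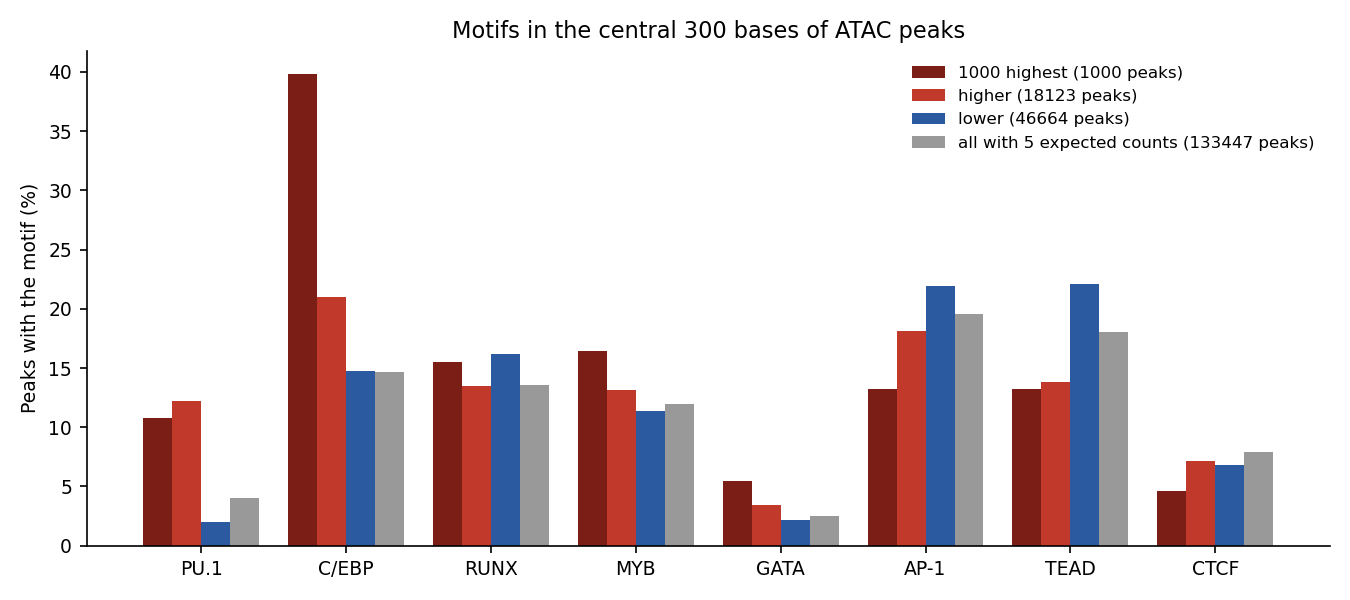
Percent of peaks whose central 300 bases hold the letters of each motif on either strand, for the 1000 peaks of highest ratio, all higher peaks, all lower peaks and all peaks with 5 or more expected counts (bars from 0). C/EBP letters were in 39.8% of the 1000 highest and 14.7% of all, and PU.1 letters in 10.8 and 3.99%.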

How the data were processed

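Femurs of Prrx1-cre; R26R(tdTomato/+) mice were taken at P21, the marrow and bone cells were dissociated, tdTomato+ cells were sorted and their nuclei were profiled with the 10X Multiome kit; how many mice were pooled is not given in the sources used here. The authors deposited a joint matrix of raw counts, UMIs per gene (32293 genes) and ATAC counts per peak (203545 peaks), for 728634 barcodes, made with Cell Ranger ARC 2.0.0 against mm10 with the transgene added, according to the submitters' processing notes and file header. An ATAC fragment can add up to 2 counts and carries no molecular identifier, so intervals cover counting error only. A deposited list of 153981 peak intervals was used only to check overlap.

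Counts were summed over the nuclei of a class and scaled to 1000000 non-mitochondrial UMIs or peak counts. Ratios had 0.5 counts added to both sides, with at least 20 UMIs or 50 peak counts over both sides, and a gene or peak was called past 2-fold. Intervals were exact (Poisson for levels, Clopper-Pearson for shares, at 95%). No test was run, because a single library of each kind leaves no replicates, and depth is given per nucleus. Nuclei were also thinned to 500 UMIs. Free RNA was profiled from barcodes of 100 to 400 UMIs with fewer than 500 peak counts. Peaks lay within the GRCm38.p6 sequence (203502 of 203502 on chromosomes), so RefSeq annotation and sequence of that build were used. The scripts were tested on simulated data.

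Named genes were those of the rule, a fixed set of regulators, receptors and stromal genes and up to 4 per list with the largest ratio. Added to these were the 15 highest outside lists, the highest 10 and lowest 5 against granulocyte nuclei, and the 10 highest peaks. Others were chosen after their values were seen, which is said beside most of them. Some genes that the rule or the lists hold are not reported here. The members and lists were chosen with earlier results of these data known. Alternatives changed the mitochondrial, UMI, marker and granule limits, the marker genes, doublets, free RNA, scaling, weighting, pseudocount and count minimum. Python 3.11.15, numpy 2.4.6, scipy 1.17.1, pandas 2.3.3, scanpy 1.11.5 (Scrublet) and matplotlib 3.10.9 were used.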

Additional observations from a re-analysis of the deposited data

How the results depend on the processing

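The share of early myeloid nuclei depended most on the mitochondrial limit: at 10% or less, 2 members remained and the share was 0.142%, with 9268 genes higher and 114 lower than in all other called barcodes, 83432 peaks higher and 3727 lower, and 80, 218 and 129 genes higher than in granulocyte, macrophage and B-lymphoid nuclei. No list medians or gene ratios are given for so few nuclei, nor a gene ratio where the members had 0 UMIs. The share was 1.09% (49 members) at a marker share of 0.3%, 1.12% (50) with Mpo and Elane alone, and 0.692% (31) with Atp8b4, Rab44 and Gpr141 alone, where 4824 genes were higher than in all others and 946 than in macrophage nuclei. Leaving Gm42418 and Lars2 out of the total gave 499 genes higher than in B-lymphoid nuclei, and equal weight for each nucleus 663 higher than in granulocyte nuclei. Adding 1 count gave 4316 genes higher and 1425 lower than in all others. A minimum of 50 UMIs left 105, 219 and 81 genes higher than in granulocyte, macrophage and B-lymphoid nuclei, and no minimum gave 3624, 3232 and 2555, and 11243 higher than in all others. With 5 expected counts and a scaled addition, chosen after seeing the data, 398 genes were higher and 1219 lower than in all others, 806 were higher than in granulocyte nuclei and 18135 peaks were higher. The direction turned for Ms4a6c (log2 ratio -0.16) and Lyz2 (-2.72) at a marker share of 0.3%, for Lyz2 (-2.86) with Mpo and Elane alone, for Cd177 (-0.10), Slfn4 (-0.28) and Rag1 (-0.70) with equal weight for each nucleus, for the median of the basophil list against granulocyte nuclei (1.73) with no minimum, and for the receptor list (-0.015) with 5 expected counts. Without the 16 granulocyte nuclei past the marker rule, a setting added after seeing the data, 395 genes were higher than in granulocyte nuclei, beside 394 with them, and the median RNA ratio to that class was 2.77 for primary granule genes (1.97 with them) and -1.53 for the secondary granule genes not used by the rule (-2.33 with them). The causes were not tested. The median RNA ratio of primary granule genes stayed between 3.42 and 5.32 over the settings with 10 or more members, their median in ATAC between 1.52 and 1.77, that of the secondary granule genes of the rule in ATAC between 1.85 and 2.25, and that of late neutrophil genes in ATAC between 1.98 and 2.35. No paired analysis was possible because there was 1 library of each kind. Depth limits the named transcription factors and Kit, Cd34 and Flt3, which rest on 3 to 35 UMIs except Runx1.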

Other observations

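Of the 17 barcodes that met the marker rule and exceeded the granule limit, 16 are among the granulocyte nuclei above and all among the other called barcodes. Their summed RNA held genes of both granule programs, with Mpo at 1128 CPM and Elane at 1263 CPM beside Camp at 14374, Ngp at 12413 and Ltf at 5992 CPM. These sums do not give the state of each barcode. Of the 16 among the granulocyte nuclei, 7 had a UMI of Mpo and 7 of Elane, while 15 had one of any primary granule gene. Over all 17, Fcnb was at 1290 CPM, S100a8 at 13246 CPM, Ms4a3 at 269 CPM and Cebpe at 296 CPM from 11 UMIs. Ctsg, in contrast, had 2 UMIs (53.7 CPM), against 546 CPM in early myeloid nuclei, and Kit, Cd34 and Flt3 had none, which leaves an upper bound of 99.1 CPM for each. Their median was 1957 UMIs, 33607 ATAC counts and 16% mitochondrial UMIs, against 2099 UMIs, 49019 counts and 39.6% in early myeloid nuclei. These barcodes were picked by their RNA, so the values are a description.

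The long RNA Gm42418, which overlaps ribosomal RNA and was picked after its value was seen, made up a median of 42.3% of the UMIs of early myeloid nuclei, against 47.2% in granulocyte, 31.5% in macrophage and 20.2% in B-lymphoid nuclei and 35.9% in all other called barcodes.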
